A study of Mus musculus with 30 samples.

Results

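The clustered protocadherin genes were examined as all regions of 8 ChIP-seq lists that share at least 1 bp with chr18:37080000-38010000 of the mouse build mm9, a window of 930 kb. The window was divided by position alone into a Pcdha part (chr18:37090000-37400000), a Pcdhb part (chr18:37400000-37700000) and a Pcdhg part (chr18:37700000-38010000). It held 390 of the 624912 regions in the lists, with 71 in Pcdha, 172 in Pcdhb, 147 in Pcdhg and 0 in the 10 kb before Pcdha. Of these, 386 were cohesin regions and 4 were Snf2h regions.

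Protocadherins are cell-surface adhesion proteins of the cadherin family, best known from neurons, where the combination made by a cell serves it to recognise itself. In the Pcdha and Pcdhg clusters each variable exon has a promoter of its own and is spliced to exons shared by the cluster, whereas the Pcdhb genes carry no shared exons. Each neuron uses only a few of the promoters, and CTCF (a zinc-finger DNA-binding protein) and cohesin (the ring complex that holds DNA loops) bind at many of these promoters and at distal enhancers. In the RefSeq table at hand, of a later build, 14 protein-coding Pcdha, 22 Pcdhb and 21 Pcdhg genes follow each other in that order, with Slc25a2 and Taf7 among the genes between Pcdhb and Pcdhg. No annotation of mm9 was used, so regions are given by position and none is assigned to a gene or promoter.

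The series had 30 samples, each the only one of its group, and 22 of them were not analysed here. Snf2h, the ATPase of ISWI chromatin remodellers, was mapped in CH12, a mouse B lymphoma line, as wild type and as a mutant in which Cas9 had removed zinc fingers 9 to 11 of CTCF from both alleles. The cohesin subunits SMC1, RAD21 and SMC3 were each mapped in NIH3T3, an immortalised mouse embryonic fibroblast line. The control NIH3T3 line stably carried an empty vector, a CpG-free plasmid that expresses beta-galactosidase, and the other line stably expressed BORIS (CTCFL), the CTCF paralogue normally made in the testis, from the same kind of plasmid. The BORIS cells were 1 clone (clone 2), so BORIS and the history of that clone cannot be told apart. The lists hold binding regions and no expression, so neither cell type could be checked against markers. Each group had 1 library, no difference between lines has a replicate check, and no test between groups was made. The 3 cohesin antibodies are repeated looks at 1 complex in the same cells, not replicates.

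The 6 cohesin lists held 82235 to 107735 regions each, with background rates of 7.43 to 8.79 fragments per kb as a stand-in for depth. The Snf2h lists held 17304 (wild type) and 23870 regions (mutant), with background rates of 20.6 and 13.8 fragments per kb. Signal is given as the pileup, the number of sequenced fragments over a region's summit. Intervals are exact 95% intervals and cover counting error only. Single regions are called by the distance of their middle from the start of the window.

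Cohesin regions were denser in Pcdhb and Pcdhg than over the rest of chromosome 18, and in Pcdha they were not distinguishably so. The stretches on either side of the window were denser than the rest of the chromosome too. With empty vector, the window held 60 SMC1, 61 RAD21 and 63 SMC3 regions. With BORIS it held 63 SMC1, 59 RAD21 and 80 SMC3 regions. The BORIS SMC3 list thus stood above the others, which lay within a few regions of each other. That list was also longer over the whole genome, at 107735 regions against 100708 for SMC3 with empty vector. Its part in the higher count was not tested beyond the values given here.

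**Figure D1:**
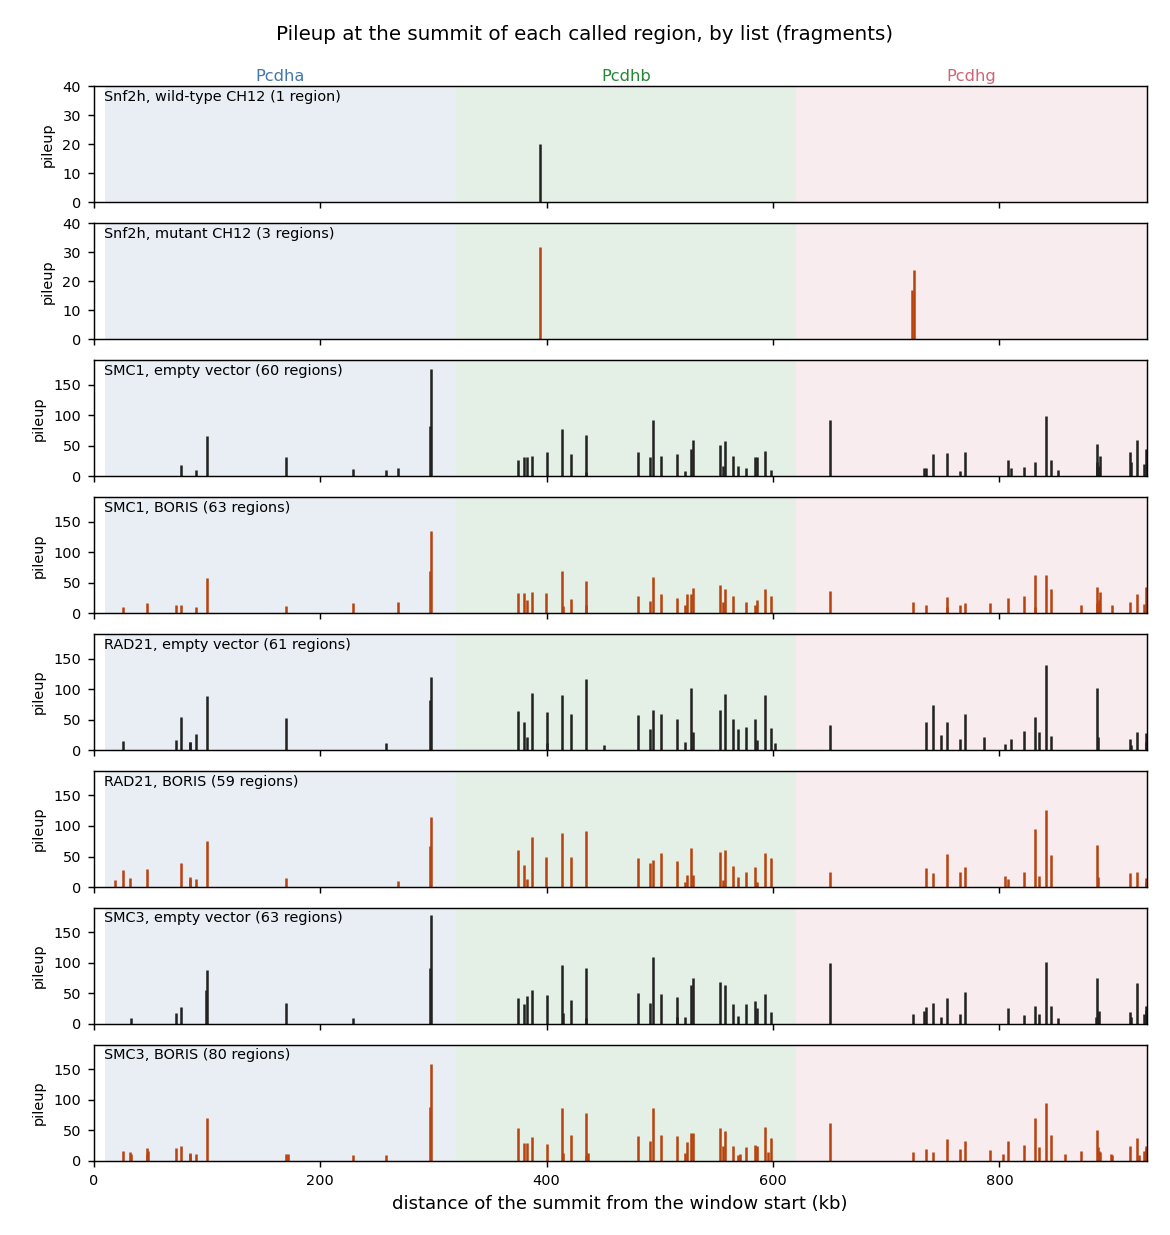
Pileup at the summit of every called region (vertical axis, fragments; Snf2h on a shorter scale than cohesin) against the distance of the summit from the start of the window (kb), with 1 panel per list and the 3 parts shaded. The 6 cohesin panels share their tall lines, whereas the Snf2h panels hold 1 and 3 regions.

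In Pcdha the lists with empty vector held 9 SMC1, 11 RAD21 and 9 SMC3 regions, and those with BORIS held 11, 13 and 18. In Pcdhb the numbers were 27, 28 and 28 with empty vector and 28, 27 and 32 with BORIS. In Pcdhg they were 24, 22 and 26 with empty vector and 24, 19 and 30 with BORIS. Pcdhb was therefore the part in which the lists differed least in number, and in Pcdha the BORIS SMC3 list had the highest count.

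Per 100 kb, the density over the window was 1.65 to 2.32 times that of the rest of chromosome 18 in the 6 lists, with a median of 2.01. In Pcdhb it was 2.30 to 3.14 times that of the rest of the chromosome, and in Pcdhg 1.98 to 2.61 times. In every list the interval of the Pcdhb and of the Pcdhg ratio lay above 1. In Pcdha the ratio was 0.743 with SMC1 and empty vector (0.34 to 1.41) and 1.57 with SMC3 and BORIS (0.928 to 2.47), the lowest and the highest of the 6, so Pcdha could not be told from the rest of the chromosome at these counts.

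The density of the whole window was not higher than that of its surroundings. The 930 kb before the window had 2.14 to 2.65 times the density of the rest of chromosome 18, and the 930 kb after it had 2.74 to 3.22 times. The 2.30 to 3.14 times of Pcdhb lay within the span of both stretches. The 1.98 to 2.61 times of Pcdhg lay within or under it. The higher density was thus not particular to these parts. For SMC1 with empty vector, the 60 regions of the window (45.8 to 77.2) stood against 79 before it (62.5 to 98.5) and 117 after it (96.8 to 140.2). The last of these intervals does not overlap that of the window. The same held for SMC1 with BORIS, whereas in the RAD21 and SMC3 lists, 4 of the 6, the intervals of the window and of the stretch after it overlapped. In all 6 lists the interval of the window overlapped that of the stretch before it.

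**Figure D2:**
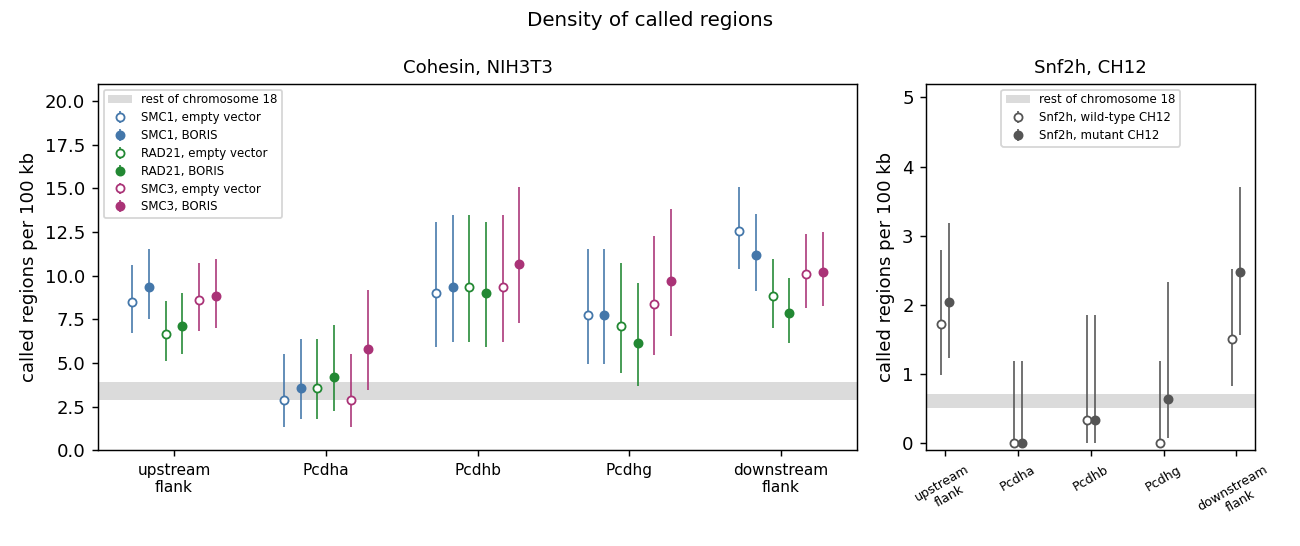
Called regions per 100 kb (vertical axis) in the 3 parts and in the equally long stretches before and after the window, for cohesin (left) and Snf2h (right), with open circles for empty vector or wild type, filled circles for BORIS or mutant, and bars for exact 95% intervals. The grey band spans the lists' densities over the rest of chromosome 18. Cohesin in Pcdhb, at 9 to 10.7 regions per 100 kb, and in both neighbouring stretches lay above it, and Pcdha lay mostly within it.

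The edges of the window fell unevenly. The first cohesin region inside began 18.7 kb after the edge and was called in 1 list with a pileup of 11. The nearest cohesin region outside lay 84.2 kb before the edge and had a highest pileup of 13. The last region inside ended 31 bp before the other edge, with a highest pileup of 44. The next cohesin region began 1566 bp beyond that edge, was called in all 6 lists and reached 204, above any region of the window.

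Regions of the 6 cohesin lists that overlapped or touched were merged, which gave 88 regions in the window and 150690 in all. Of the 88, 42 were called in all 6 lists (47.7%, 37.0 to 58.6), against 34.5% of all merged regions. The share was 24 of 33 in Pcdhb (72.7%, 54.5 to 86.7), 13 of 35 in Pcdhg (37.1%, 21.5 to 55.1) and 5 of 20 in Pcdha (25.0%, 8.66 to 49.1). The interval of the whole window lay above the share over the genome, and of the 3 parts only that of Pcdhb did. In the stretch before the window the share was 42.3% (32.7 to 52.4) and in the stretch after it 39.1% (30.8 to 47.9), so the intervals of both overlap that of the window. Neighbouring regions are not independent, so these intervals are narrower than the true uncertainty.

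**Figure D3:**
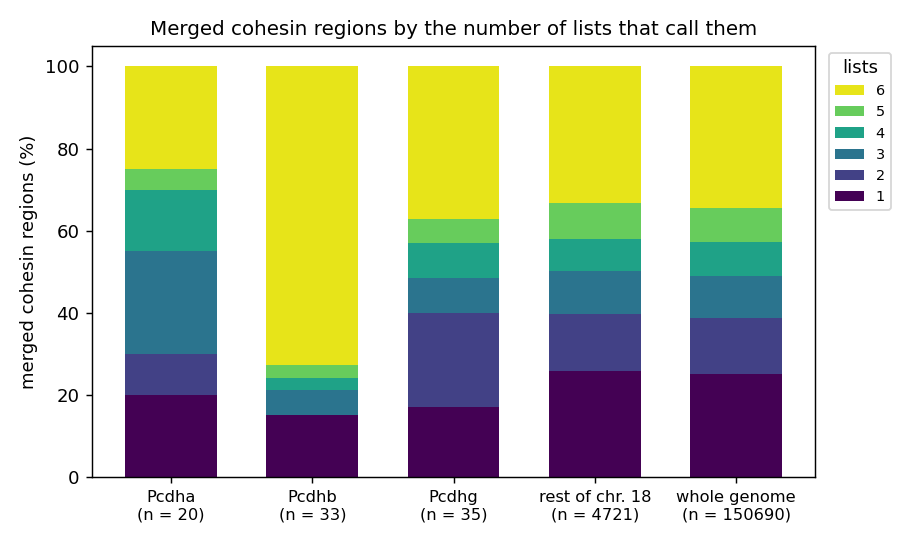
Share of merged cohesin regions (vertical axis, %) called in 1 to 6 lists, in the 3 parts, the rest of chromosome 18 and the whole genome, with the number of merged regions under each bar. Regions called in all 6 lists made up 72.7% in Pcdhb, 37.1% in Pcdhg and 25.0% in Pcdha.

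The regions called in all 6 lists, called shared here, followed each other at different spacings. The median gap between neighbouring shared regions was 6.78 kb in Pcdhb, 9.86 kb in Pcdhg and 45.4 kb in Pcdha. The longest stretch of the window without a shared region ran over 127 kb of Pcdha (chr18:37249799-37376767). The longest stretch without a region of any list, at 75.9 kb (chr18:37378394-37454265), ran from the end of the last Pcdha region into Pcdhb. In Pcdhg, the longest stretch without a cohesin region was 73.1 kb (chr18:37730555-37803621), and a Snf2h region of the mutant list lay near its end.

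The other 46 regions reached a pileup of at most 74, against 178 among the shared ones. Of these, 31 were called in 2 to 5 lists and 15 in 1 list (17.0% of the 88, against 25.3% over the genome), the latter with pileups of 8 to 22. The BORIS SMC3 list alone called 10 of the 15 (66.7%, against 24.8% of regions in 1 list over the genome), with pileups of 10 to 17. The empty-vector RAD21 list alone called 3, and the empty-vector SMC3 and BORIS RAD21 lists alone called 1 each. Without the BORIS SMC3 list the window held 79 merged regions, of which 11 were in 1 list and the number called in every list stayed at 42.

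In Pcdha, the strongest region stood next to the longest empty stretch. The region at 298 kb (chr18:37377758-37378393, 636 bp) had pileups of 175 (SMC1), 120 (RAD21) and 178 (SMC3) with empty vector. With BORIS these were 134, 114 and 159. Among the regions of its list, ordered by −log10 p, it ranked 38 for SMC1 with empty vector and 244 with BORIS, 173 and 289 for SMC3, and 5462 and 2209 for RAD21. It was thus near the top of the genome for SMC1 and SMC3 and lower in the RAD21 lists.

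Just before it, at 297 kb (chr18:37376768-37377322), a second shared region had pileups of 82, 82 and 92 for SMC1, RAD21 and SMC3 with empty vector and of 69, 68 and 89 with BORIS. The 2 regions lay 0.436 kb apart, the closest pair of shared regions in the window. The third region of Pcdha by rank, at 100.1 kb (chr18:37179515-37180599), was 1085 bp wide. Its pileups were 66, 88 and 88 with empty vector and 57, 75 and 71 with BORIS. These 3 regions were chosen by their lowest percentile over the lists, and none fell under 83.7 in any list.

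In Pcdhb, no region reached the height of the strongest in Pcdha, but many were of middle height. The region at 435 kb (chr18:37514567-37515222) had pileups of 68 (SMC1), 116 (RAD21) and 91 (SMC3) with empty vector and of 52, 91 and 78 with BORIS. The region at 414 kb (chr18:37493294-37493935) had 77, 91 and 96 with empty vector and 69, 89 and 86 with BORIS. The region at 557 kb (chr18:37637191-37637676) had 58, 92 and 64 with empty vector and 39, 61 and 49 with BORIS. In each of the 3, RAD21 was at or near the top of the 3 antibodies in both lines, unlike at 298 kb. Over the 24 shared regions of Pcdhb, the median percentile within the list was 76.4 to 82.0. For all shared regions it was 67.6 to 75.0 over the genome and 68.7 to 76.9 on the rest of chromosome 18. For SMC1 with empty vector these were 76.4, 75.0 and 76.9, so Pcdhb did not stand out there.

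In Pcdhg, the strongest region lay at 841 kb (chr18:37920893-37921696), with pileups of 98, 140 and 102 for SMC1, RAD21 and SMC3 with empty vector and of 63, 127 and 95 with BORIS. The region at 886 kb (chr18:37965663-37967041) was the widest in the window at 1379 bp, and its pileups were 53, 101 and 76 with empty vector and 43, 69 and 51 with BORIS. The region at 754 kb (chr18:37833772-37834251) had 38, 46 and 43 with empty vector and 27, 54 and 36 with BORIS. RAD21 was again the highest of the 3 antibodies in all 3 regions and both lines. The third widest shared region of the window lay at its far edge, at 929 kb (chr18:38008975-38009969, 995 bp), where SMC1 was the highest, at 44 with empty vector and 43 with BORIS.

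BORIS cells and empty-vector cells were compared at the 42 shared regions by the log2 ratio of their pileups for each antibody, less the median of that ratio over all 51926 shared regions of the genome. Those medians were -0.36 (SMC1), -0.34 (RAD21) and -0.28 (SMC3) before the subtraction, and -0.34, -0.27 and -0.19 when the lists were scaled by their background rates. Values are thus relative to a pileup that was lower with BORIS over the genome. The median over the window was 0.03 (SMC1), 0.01 (RAD21) and 0.04 (SMC3). Of the 42 regions, 9 were below 0 with all 3 antibodies and 9 were above 0 with all 3, or 21.4% each, against 28.4% and 28.0% over the genome. The medians of the clusters thus lay close to that of the genome.

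**Figure D4:**
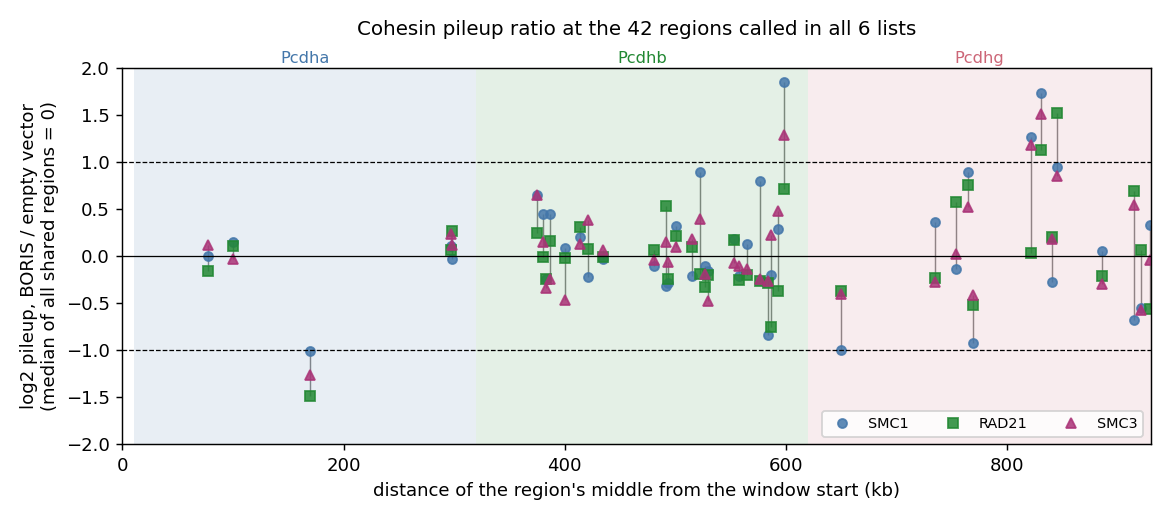
Log2 ratio of the pileup in BORIS over empty-vector cells (vertical axis, with the median of all shared regions of the genome at 0) at the 42 regions called in all 6 lists, against the distance from the start of the window (kb). Points are antibodies, grey lines join the 3 antibodies of 1 region, and dashed lines mark 2-fold; the region at 169.6 kb lies below -1 and that at 831 kb above 1 with all 3 antibodies.

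A region counted as changed when its ratio was at least 2-fold in the same direction with all 3 antibodies. In the window 1 region was lower by this rule, against 0.206% of the shared regions of the genome, and 1 was higher, against 0.828%. Both counts are too small to set against these shares.

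The lower region lay in Pcdha at 169.6 kb (chr18:37249454-37249798, 345 bp), at the start of the longest stretch without a shared region. Its pileups were 31 (SMC1), 53 (RAD21) and 35 (SMC3) with empty vector and 12, 15 and 12 with BORIS. Every BORIS value was below every empty-vector value. The log2 ratios were -1.01 (SMC1), -1.48 (RAD21) and -1.26 (SMC3). As ratios these were 0.496 (0.232 to 0.993), 0.357 (0.187 to 0.644) and 0.416 (0.197 to 0.821). The SMC1 value lay just past 2-fold, and the region was no longer called when the scale was set by the shared regions of chromosome 18, with a median of -1.22.

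The higher region lay in Pcdhg at 831 kb (chr18:37911043-37911657, 615 bp). Its pileups were 24 (SMC1), 55 (RAD21) and 30 (SMC3) with empty vector and 62, 95 and 70 with BORIS. Every BORIS value was above every empty-vector value. The log2 ratios were 1.73 in SMC1, 1.13 in RAD21 and 1.5 in SMC3 libraries, or 3.31-fold (2.04 to 5.55), 2.18-fold (1.55 to 3.10) and 2.83-fold (1.82 to 4.5). With scaling by the background rates RAD21 fell under 2-fold and the call was lost, with a median of 1.32.

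Other regions of Pcdhb and Pcdhg came near the limit with BORIS and were picked out after their values were seen. The region at 598 kb (chr18:37677802-37678306), in Pcdhb, had 10, 37 and 19 fragments for SMC1, RAD21 and SMC3 with empty vector and 28, 48 and 38 with BORIS, with log2 ratios of 1.84, 0.71 and 1.28. The region at 846 kb (chr18:37925408-37925771), in Pcdhg, had 26, 23 and 29 with empty vector and 39, 52 and 43 with BORIS, with log2 ratios of 0.94, 1.51 and 0.85. It was 1 of the 2 shared neighbours of the strongest Pcdhg region, and the region at 831 kb was the other. All 3 antibodies were higher with BORIS at both, and at least 1 stayed short of 2-fold. At 1.5-fold, 3 regions of the window were higher with all 3 antibodies, against 3.74% over the genome, and 1 was lower, against 2.31%; these counts too are small.

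On the lower side, the region at 650.3 kb (chr18:37730119-37730554) had 92, 41 and 100 fragments for SMC1, RAD21 and SMC3 with empty vector and 36, 25 and 62 with BORIS. As ratios after scaling these were 0.501 (0.331 to 0.745), 0.77 (0.449 to 1.3) and 0.753 (0.539 to 1.04), with overlapping intervals. The region at 741 kb (chr18:37821241-37821534) had 37, 74 and 35 with empty vector, and with BORIS it was called at 23 for RAD21 and 14 for SMC3 and not for SMC1. It was the strongest region of the window not called in all 6 lists, and its log2 ratios for RAD21 and SMC3 were -1.35 and -1.04.

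Few regions were private to a line, meaning that SMC1, RAD21 and SMC3 all had a call in it and the opposite line had no call at all. There were 2 such regions for BORIS, against 2.41% of merged regions over the genome, and 1 for empty vector, against 1.61%. These shares of the 88 are near the background.

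The BORIS region in Pcdhb lay at 524 kb (chr18:37604207-37604532), with SMC1, RAD21 and SMC3 pileups of 31, 19 and 31. The BORIS region in Pcdha lay at 47.2 kb (chr18:37127126-37127347), with pileups of 17, 30 and 21. The empty-vector region lay at 916 kb (chr18:37996205-37996636), in Pcdhg, with pileups of 24, 9 and 12. All 3 were of low to middle height, and a region called in all 6 lists ended less than 1 kb before the empty-vector one. At a −log10 q of 10 or more, or with lists of equal length, the BORIS region at 524 kb was still private and the other 2 regions were not. At that −log10 q the lower region at 169.6 kb, called in all 6 lists as deposited, counted as private to empty vector instead.

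With any number of antibodies, 17 merged regions were called with BORIS and not with empty vector, against 18.8% over the genome, and 9 with empty vector and not with BORIS, against 18.6%. As shares of the 88 regions these were 19.3% and 10.2%. Leaving out those called by the BORIS SMC3 list alone, 7 of the 17 remained (7.95% of the 88), against 12.6% over the genome and 11.2% on the rest of chromosome 18 by the same rule. In Pcdha, 6 regions were called with BORIS alone and 0 with empty vector alone, and 3 of the 6 came from the BORIS SMC3 list alone. In Pcdhb the numbers were 4 and 2, and in Pcdhg they were 7 and 7.

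RAD21, the subunit that closes the cohesin ring, was high against SMC1 and SMC3, the subunits that form its arms, at most shared regions of the window. This comparison was chosen after the values were seen. In Pcdhb the median pileup of the 24 shared regions was 58.5 for RAD21, 35.0 for SMC1 and 46.5 for SMC3 with empty vector, and 47.5, 32.0 and 40.5 with BORIS. Over all shared regions of the genome the medians were 36, 37 and 40 with empty vector and 28, 30 and 34 with BORIS. RAD21 thus led in Pcdhb and was lowest over the genome, in both lines.

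For each region and line, the balance was taken as log2 RAD21 pileup less the mean log2 pileup of SMC1 and SMC3, with the genome median set to 0. Its median over the 42 shared regions was 0.58 with empty vector and 0.53 with BORIS. By part it was 0.62 and 0.56 in Pcdhb, 0.49 and 0.64 in Pcdhg, and 0.28 and 0.35 in Pcdha. In the stretch before the window it was -0.22 and -0.13, and in the stretch after it -0.17 and -0.21. The rest of chromosome 18 was at 0.02 and 0.004. The medians of the 3 parts thus stood above those of both neighbouring stretches in both lines when all shared regions were counted.

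Above 0 in both lines were 30 of the 42 shared regions (71.4%), against 37.9% over the genome, 31.8% in the stretch before the window and 23.1% in the stretch after it. In Pcdhb they were 19 of 24, in Pcdhg 8 of 13 and in Pcdha 3 of 5. Across the 42 regions the balances of the lines had a Pearson correlation of 0.79 and a Spearman correlation of 0.66, and across all shared regions 0.68 and 0.67. The lines share the antibodies and the genome, and each value rests on 1 RAD21 library per line.

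**Figure D5:**
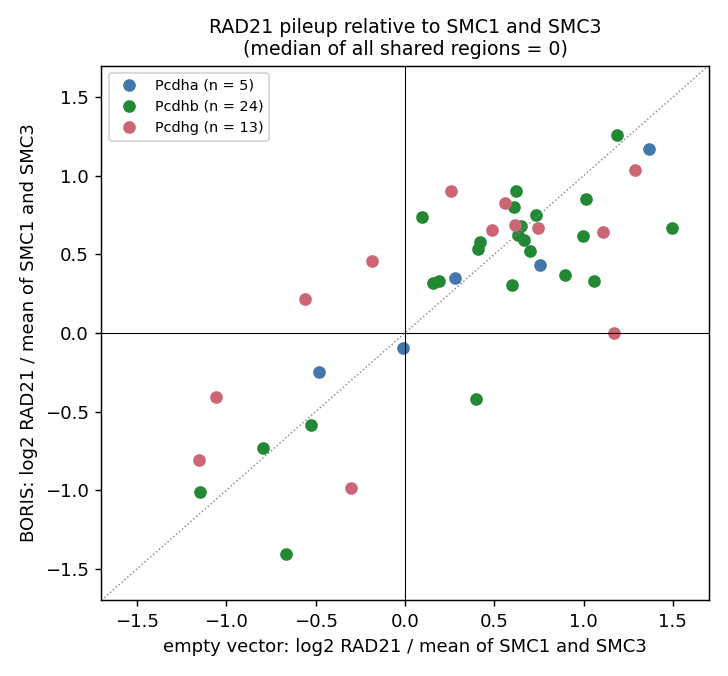
Balance of RAD21 against SMC1 and SMC3 (log2 pileup, with the median of all shared regions of the genome at 0) with empty vector (horizontal axis) and with BORIS (vertical axis) at the 42 shared regions, coloured by part; the dotted line marks equal values. Of the 42 points, 30 lie above 0 on both axes and 9 below 0 on both.

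The balance was at least 2-fold high in both lines at 3 regions of the window, against 1.31% of shared regions over the genome, and at least 2-fold low in both at 1 region, against 0.106%. The high regions were spread over the parts. In Pcdhb, the region at 387 kb (chr18:37466909-37467235) had 33, 93 and 56 fragments for SMC1, RAD21 and SMC3 with empty vector and 35, 82 and 39 with BORIS. In Pcdha, that at 77.4 kb (chr18:37157246-37157627) had 18, 55 and 28 and then 14, 39 and 25. In Pcdhg, that at 735 kb (chr18:37815144-37815382) had 14, 46 and 28 and then 14, 31 and 19.

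In each of these 3, RAD21 was more than both other antibodies in both lines, which follows largely from the rule that chose them. The low region lay in Pcdhb at 529.7 kb (chr18:37609511-37609837), with 60, 29 and 76 with empty vector and 42, 20 and 45 with BORIS. The shared region just before it, at 527 kb, had a balance of 1.02 with empty vector and 0.85 with BORIS. The strongest Pcdha region, at 298 kb, also had a balance below 0, at -0.48 with empty vector and -0.25 with BORIS.

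Over the 51926 shared regions of the genome the mean balance had a Spearman correlation of 0.36 with the mean percentile of the region, which includes RAD21 itself, and over the 42 regions of the window 0.04. Among shared regions at or above a mean percentile of 70 in the SMC1 and SMC3 lists, the genome median was 0.10 with empty vector and 0.11 with BORIS. The 26 such regions of the window had 0.42 and 0.56, and the 15 in Pcdhb 0.63 and 0.59. The 3 in Pcdha had -0.01 and -0.09 and the 8 in Pcdhg 0.04 and 0.55. In the stretch before the window the strong regions were at 0.02 and 0.06 and in the stretch after it at -0.08 and -0.01. Among strong regions, Pcdhb thus stood above both stretches in both lines, Pcdhg clearly so only with BORIS, and Pcdha in neither line above the stretch before it.

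Snf2h regions were few in the window in CH12 cells. The wild-type list held 1 and the mutant list 3, with 0 in Pcdha in both. Against the rest of chromosome 18 the density was 0.213 times for the wild-type list (0.00538 to 1.19) and 0.452 times for the mutant one (0.0932 to 1.32), so both intervals include 1. Against the neighbouring stretches the window was sparse, but these were themselves dense in Snf2h regions. The stretch before it had 3.40 (wild type) and 2.86 (mutant) times the density of the rest of chromosome 18. The stretch after it had 2.98 and 3.46 times. In wild type the stretch before it held 16 regions (9.15 to 26) and the one after it 14 (7.65 to 23.5), where the window held 1 (0.0253 to 5.57). In the mutant these were 19 (11.4 to 29.7) and 23 (14.6 to 34.5) against 3 (0.619 to 8.77).

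Called in both lines was 1 Snf2h region, in Pcdhb (chr18:37473995-37474267 in wild type and chr18:37474012-37474319 in the mutant), with summits 56 bp apart. Its pileup was 20 without and 32 with the CTCF deletion. Scaled by the median of all Snf2h regions shared by the lines, the mutant was 1.54 times as high (0.852 to 2.83), an interval that includes 1. Scaled by the background rates of the lists it was 2.39 times as high (1.33 to 4.41), an interval above 1, and on that scale the median of all Snf2h regions shared by the lines was itself 1.56. Whether the region counts as higher in the mutant thus depends on the scaling. Within the list it ranked at percentile 67.1 (wild type) and 91.8 (mutant).

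The mutant alone had 2 regions, both in Pcdhg. The region at chr18:37804175-37804531 had a pileup of 24 and ranked at percentile 60.03, and the region at chr18:37802734-37802940 had a pileup of 17 and ranked at 2.99. Over the genome, 56.1% of mutant regions and 38.8% of wild-type regions had no partner in the other line, and 2 of 3 and 0 of 1 are too few to set against these shares. With a −log10 q of at least 10 the wild-type list held 0 regions in the window and the mutant list 1, the region in Pcdhb.

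No Snf2h region of the window overlapped a cohesin region. Over the genome 34.4% of Snf2h regions did, and the 4 regions here, which lie at 3 places since the Pcdhb region was called in both lines, are too few to set against that share. The Snf2h and cohesin lists came from different cell lines, so this describes positions only. The nearest cohesin region lay 324 bp from the stronger Pcdhg region and 682 bp from the weaker one, and about 5.5 kb from the Pcdhb region in either line. Next to the Pcdhg regions this was 1 weak region called in 3 lists, with pileups of 14 to 19, and the nearest region called in all 6 lists lay 10613 and 12204 bp away.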

How the data were processed

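The 8 deposited lists follow the narrowPeak layout (10 columns) and were the authors' calls. MACS2, Bowtie, Bowtie2, SAMtools, deepTools 3.5.0 and the builds mm9 and hg19 are named, without role, in the submitters' processing notes, and the control and thresholds are not given in the sources used here. Positions on chromosome 1 reach past the end of later mouse builds, so mm9 was used. The authors deposited a score per region, a fold (the ratio of the summit's pileup to a local background), and −log10 p and −log10 q values of the summit. Names in the Snf2h lists carry a tag that may stand for pooled replicates, on which the labels are silent. The fold and the −log10 p, taken as a Poisson tail with 1 added to both pileup and background, were solved for pileup and background; all summits gave a whole number within 0.001 in −log10 p. Scripts were tested on simulated data. Only autosomes (1 to 19), X and Y were used, with positions counted from 1. The background rate is the lowest background of a list divided by its narrowest region. A percentile is the rank of −log10 p within a list. Flanks are the equally long stretches on either side.

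Named were the 3 regions of each part with the highest lowest percentile over the 6 lists, all private or changed regions (at most 5 a class), the 3 widest shared regions and all Snf2h regions (at most 10). The members, parts and lists were chosen with earlier results of these data known. The balance of RAD21 with its limits, the counts of regions called in 1 line with any antibody, the alternatives without the BORIS SMC3 list and the scaling of the Snf2h region by background rates were chosen after the values were seen. Alternatives were other thresholds, list lengths, overlaps, scalings and antibodies. Python 3.11.15, numpy 2.4.6, pandas 2.3.3, scipy 1.17.1 and matplotlib 3.10.9 were used. No mm9 annotation was given, so the planned assignment of regions to genes was not run, and no sequence is printed.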

Additional observations from a re-analysis of the deposited data

Results flagged for a closer look

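The number of regions in the window changed from empty vector to BORIS by 3 for SMC1, by -2 for RAD21 and by 17 for SMC3, and the difference between antibodies in sign was not tested. The counts with empty vector were 60 for SMC1 (45.8 to 77.2), 61 for RAD21 (46.7 to 78.4) and 63 for SMC3 (48.4 to 80.6). The changes of SMC1 and RAD21 were small beside these intervals. That of SMC3, to 80 (63.4 to 99.6), had overlapping intervals. The lines share many of their called sites, so intervals of single counts do not measure the spread of a change between lines. The whole lists went from 106420 to 102207 regions for SMC1, from 84433 to 82235 for RAD21 and from 100708 to 107735 for SMC3.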

How the results depend on the processing

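Of 82 alternative values, 52 stayed close to the reported ones, 30 moved and no called region changed direction, while the median log2 ratio, near 0 as reported, turned negative without the SMC1 lists and with scaling by background rates; where no reason is given, the cause was not tested. With a −log10 q of at least 10 fewer regions enter: cohesin density was 2.64 times that of the rest of chromosome 18, 27 regions were called in all 6 lists, 1 was private to BORIS, 1 other than the reported one to empty vector, Snf2h lists held 0 (wild type) and 1 (mutant), the latter private to the mutant, and the median RAD21 balance, averaged over the lines, was 0.45 against 0.55. With lists of equal length 1 region was private to BORIS, 0 to empty vector and 1 Snf2h region to the mutant. With at least 2 antibodies 6 were private to BORIS and 5 to empty vector, and with none of the other line within 1 kb 0 were private to empty vector. Leaving out each antibody gave 2 to 6 regions private to BORIS, 2 to 3 private to empty vector, 1 to 2 lower and 1 to 3 higher, and a median log2 ratio of -0.0038 to 0.035. Scaling by chromosome 18 left 0 lower regions and a median of 0.083, and scaling by background rates left 0 higher regions and a median of -0.27. On the background scale the medians of all shared regions of the genome were themselves -0.34 (SMC1), -0.27 (RAD21) and -0.19 (SMC3). The window thus lay near the genome on that scale too. In percentile points the median difference was 0.72, that of the lower region -59.5 and that of the higher region 27.6, on another scale than log2. At 1.5-fold 3 regions were higher. Against SMC3 alone the RAD21 balance was 0.39. No paired analysis was possible because each group had 1 sample. Pileups of 8 to 30 leave ratios with wide intervals, so smaller changes were not detectable.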
